A study of Homo sapiens with 6 samples.

Results

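The MAP kinase feedback genes followed here are 10 genes whose transcripts restrain or report signaling through the RAS-ERK pathway and its stress-kinase relatives. They were chosen by symbol, as DUSP1, DUSP4, DUSP5, DUSP6, DUSP10, SPRY2, SPRY4, SPRED1, ETV4 and ETV5, and all 10 were present among the 23228 genes of the count tables. All 10 also passed edgeR's filter on low counts, which kept 12663 genes. RNA was sequenced from RL95-2, an established human endometrial carcinoma cell line grown in RPMI with 10% FBS and then kept for 24 h without serum. The 3 control libraries came from cells in an equal mix of RPMI and DMEM, and the 3 ADP-CM libraries from cells in an equal mix of RPMI and ADP-CM. ADP-CM is DMEM conditioned by mature adipocytes from the visceral fat of obese women, so both groups were serum-starved and differed in the conditioning of the DMEM. Conditioning also included enzyme digestion of the fat, time in culture and filtering. What these steps did cannot be told apart from what adipocytes had added to or removed from the DMEM. RL95-2 is a single cell line, the labels do not say whether the libraries of a group came from separate cultures, and p-values then measure only the spread between these libraries, which may be technical.

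When growth factors activate ERK, the kinase phosphorylates transcription factors that switch on, among other genes, inhibitors of the same pathway. DUSP proteins of this family are phosphatases that remove the activating phosphates from ERK, p38 or JNK, while Sprouty and SPRED proteins act upstream, at the steps that load RAS and activate RAF. ETV4 and ETV5 are ETS transcription factors of the PEA3 family, and their transcripts are widely used, with DUSP6 and SPRY4, as a readout of ERK activity. The pathway is of interest in endometrial carcinoma, where RAS and growth factor receptor signaling are often altered. Of the 10 genes, 8 were taken as ERK feedback genes (DUSP4, DUSP5, DUSP6, SPRY2, SPRY4, SPRED1, ETV4 and ETV5) and 2 as stress-associated phosphatase genes (DUSP1 and DUSP10).

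The libraries held 16262614 to 18363033 reads on genes each, and levels are given as CPM, read counts divided by library size after TMM scaling. The common biological coefficient of variation was 1.67%. All 7 epithelial markers examined were detected, at 4090 to 4160 CPM in sum in control and 3440 to 3490 in ADP-CM, with KRT8 and KRT18 making up most of it. Of 8 adipocyte markers, ADIPOQ, LEP and CIDEA had 0 reads in all libraries and 6 never exceeded 3 reads, with sums of 0.370 to 1.01 CPM in control and 0.773 to 0.979 in ADP-CM. The 7 stromal markers summed to 61.5 to 68.4 CPM in control and 78.3 to 79.2 in ADP-CM, nearly all of it COL1A1, with 3 markers never above 3 reads. The 6 leukocyte markers summed to 7.08 to 8.53 and 9.98 to 12.2 CPM, mostly CD68, and PTPRC, the general leukocyte marker, never exceeded 3 reads. The 4 endothelial markers summed to 60.7 to 66.4 and 54.5 to 61.6 CPM, nearly all CDH5, with KDR at 0 reads. The part of these shifts in the results below was not tested. In bulk RNA, a change in the share of cells that express a gene cannot be told apart from a change per cell.

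The clearest difference lay in the ETS factors ETV4 and ETV5, which were both higher in ADP-CM, while most of the inhibitor genes moved little. By edgeR's quasi-likelihood test at an adjusted p of 0.01, 3 of the 10 genes rose (ETV4, ETV5 and DUSP6) and 1 fell (DUSP5). Over all tested genes the same threshold called 13.5% as higher and 13.0% as lower. All 4 changed genes were among the 8 ERK feedback genes, and neither stress phosphatase gene passed the test. Over all tested genes 26.5% were called in either direction, so the absence of a call among 2 genes does not set them apart. These 2 genes also had only 137 to 302 reads per library. For the 4 changed genes, and for no other of the 10, the CPM ranges of the groups did not overlap. Over all tested genes this held for 22.7% with ADP-CM higher and 22.8% with ADP-CM lower. None of the 10 passed a fold change of 1.5 as well, a limit that 1.14% of all tested genes passed upward and 1.14% downward. The median log2 fold change was 0.07 for the 8 ERK feedback genes and 0.03 for all 10, beside -0.0023 for all tested genes.

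**Figure D1:**
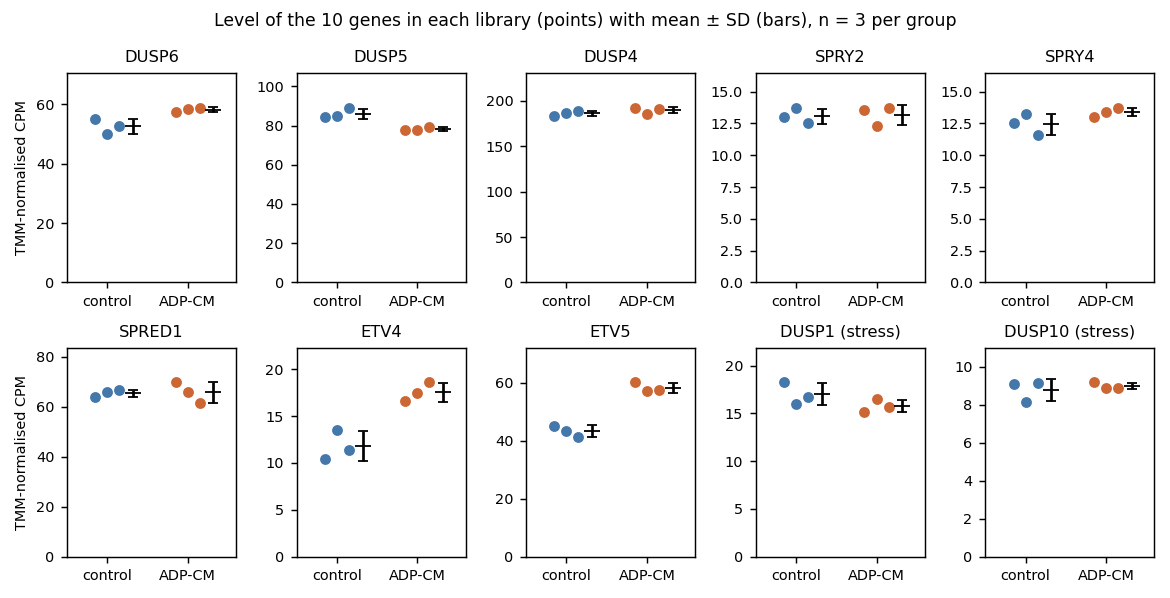
TMM-normalised CPM (y axis, from 0) of each of the 10 genes in the 3 control (blue) and 3 ADP-CM (orange) libraries, with the mean ± SD beside the points. ETV4, ETV5 and DUSP6 have every ADP-CM point above every control point and DUSP5 has every one below, while the groups overlap for the other 6 genes.

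ETV4 (chromosome 17, 41605212 to 41656988, minus strand, GRCh37) encodes a PEA3-family activator that acts at the end of the ERK pathway. Control replicates 1, 2 and 3 had 170, 229 and 194 reads of it, and the ADP-CM replicates, in the same order, had 300, 320 and 342. On the CPM scale these were 10.5, 13.6 and 11.3 in control and 16.6, 17.4 and 18.6 in ADP-CM. The lowest ADP-CM library was 1.22 times the highest control library, so the groups were well apart although the control libraries varied among themselves. ETV4 rose from 11.8 ± 1.59 to 17.5 ± 1.01 CPM (SD, n = 3 each), or 1.49 times the control level (95% interval 1.32 to 1.67). On the log2 scale the change was 0.57 ± 0.083 (SE), at an adjusted p-value of 6.99e-08. The control spread of 13.5% was wider than the 6.21% that counting alone gives at the mean reads of all 6 libraries, a mean above that of control. The upper part of the interval lay past 1.5-fold, and ETV4 passed that limit without control replicate 2 (log2 fold change 0.68) or without ADP-CM replicate 1 (0.61).

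ETV5 (chromosome 3, 185764103 to 185828107, minus strand) encodes the closest relative of ETV4 among the 10 and had more reads than ETV4 in every library. Its levels were 45.2, 43.5 and 41.1 CPM in control and 60.1, 57.1 and 57.4 CPM in ADP-CM. The lowest ADP-CM library was 1.26 times the highest control library. ETV5 rose from 43.3 ± 2.07 to 58.2 ± 1.63 CPM (SD, n = 3 each), or 1.35 times the control level (95% interval 1.26 to 1.43; adjusted p-value 5.59e-12). It ranked 282 among the 12663 tested genes by p-value, and ETV4 ranked 662. The reads of ETV5 per read of ETV4 numbered 4.32, 3.21 and 3.62 in control and 3.63, 3.28 and 3.09 in ADP-CM, ranges that overlapped. The third PEA3-family gene, ETV1, had 0 reads in all 6 libraries, a count that allows for up to 3 reads per library.

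DUSP6 encodes the cytoplasmic phosphatase that is selective for ERK, and its transcript is a standard marker of ERK output. DUSP6 (chromosome 12, 89741012 to 89746278, minus strand) stood at 55.0, 50.1 and 52.7 CPM in control and at 57.4, 58.6 and 58.8 CPM in ADP-CM. The ADP-CM libraries lay close together and all above the control libraries, by 1.04 times at the nearest point. DUSP6 rose from 52.6 ± 2.44 to 58.3 ± 0.758 CPM (SD, n = 3 each), or 1.11 times the control level (95% interval 1.04 to 1.18; adjusted p-value 0.00461). That call was not stable. It held without control replicate 1 (adjusted p-value 0.00277). Leaving out control replicate 2 (0.0680) or 3 (0.0160), or ADP-CM replicate 1 (0.0106), 2 (0.0141) or 3 (0.0118), ended it, as did DESeq2 (0.0506). In the annotation 28.6% of the exonic bases of DUSP6 lie opposite an unnamed antisense gene, and the strand setting of the counting is not given in the sources used here, so reads of that gene could be included.

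DUSP5 encodes the nuclear counterpart, a phosphatase that is also selective for ERK, and its RNA moved the other way. DUSP5 (chromosome 10, 112257665 to 112271291, plus strand) was at 84.1, 84.8 and 88.9 CPM in control and at 77.5, 77.8 and 79.4 CPM in ADP-CM, with no overlap. DUSP5 fell from 85.9 ± 2.57 to 78.2 ± 1.04 CPM (SD, n = 3 each), or 0.910 times the control level (95% interval 0.866 to 0.957; adjusted p-value 0.00180). The call was lost without control replicate 3 (0.0304), without ADP-CM replicate 1 (0.0135) and with DESeq2 (0.0236). Reads of DUSP6 per read of DUSP5 numbered 0.654, 0.591 and 0.593 in control and 0.741, 0.753 and 0.740 in ADP-CM. That ratio was formed after the values of both genes were known and is given with no test. It was higher in each ADP-CM library than in any control library. This had to follow, since neither gene overlapped between the groups and they moved in opposite directions. The ratio thus adds nothing to the calls of DUSP6 and DUSP5.

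DUSP4 (chromosome 8, 29190581 to 29208201, minus strand), a nuclear phosphatase induced by ERK that can act on ERK, p38 and JNK, was the most abundant of the 10 by reads. It had 184, 187 and 189 CPM in control and 192, 186 and 191 CPM in ADP-CM, and the groups overlapped. Its fold change was 1.02 with a 95% interval of 0.981 to 1.06 and an adjusted p-value of 0.494. At 2978 to 3522 reads per library this interval was the narrowest of the 10.

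The Sprouty and SPRED genes, whose products act on the receptor-proximal and RAS steps, did not differ detectably. SPRY2 (chromosome 13, 80910111 to 80915261, minus strand) had 13.0, 13.7 and 12.5 CPM in control and 13.5, 12.3 and 13.7 CPM in ADP-CM, a fold change of 1.01 (95% interval 0.898 to 1.13; adjusted p-value 0.935). SPRY4 (chromosome 5, 141689992 to 141706020, minus strand) had 12.5, 13.2 and 11.6 CPM in control and 13.0, 13.4 and 13.7 CPM in ADP-CM, a fold change of 1.08 (0.959 to 1.21; adjusted p-value 0.334). Both genes had only 198 to 252 reads per library, so their intervals did not exclude changes of the size seen for DUSP6. SPRED1 (chromosome 15, 38545037 to 38649450, plus strand), which recruits the RAS inhibitor neurofibromin to the membrane, had 63.9, 66.0 and 66.6 CPM in control and 69.8, 65.8 and 61.6 CPM in ADP-CM. Its ADP-CM libraries enclosed the control range on both sides, and its fold change was 1.00 (0.947 to 1.06; adjusted p-value 0.952).

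The 2 stress-associated phosphatase genes showed no detectable difference either. DUSP1 (chromosome 5, 172195099 to 172198198, minus strand) encodes a nuclear phosphatase that is induced early by growth factors and by stress and acts strongly on p38 and JNK. It had 18.2, 16.0 and 16.7 CPM in control and 15.1, 16.5 and 15.7 CPM in ADP-CM, a fold change of 0.929 (95% interval 0.838 to 1.03; adjusted p-value 0.279). DUSP10 (chromosome 1, 221874766 to 221915431, minus strand), which encodes a phosphatase selective for p38 and JNK, had 9.06, 8.11 and 9.12 CPM in control and 9.17, 8.89 and 8.86 CPM in ADP-CM. Its fold change was 1.02 (0.889 to 1.18; adjusted p-value 0.825), on 137 to 166 reads per library, the fewest of the 10.

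**Figure D2:**
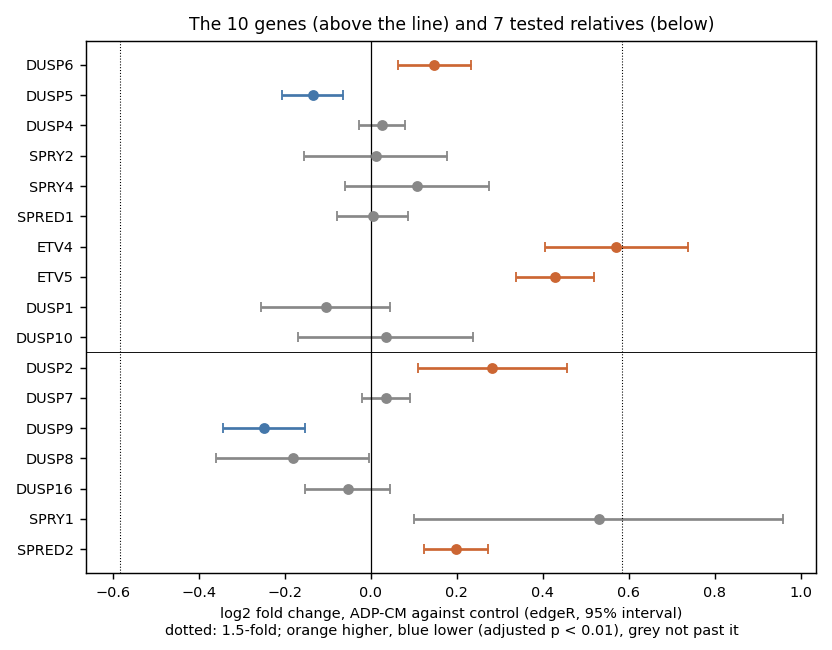
Log2 fold change of ADP-CM against control (x axis) from edgeR with 95% intervals, for the 10 genes above the line and 7 tested relatives below it, with dotted lines at 1.5-fold. ETV4 and ETV5 lie furthest to the right of the 10 at 0.57 and 0.43, with the relative SPRY1 between them at 0.53 on a wide interval, while the intervals of DUSP4, SPRED1, SPRY2, SPRY4, DUSP1 and DUSP10 include 0.

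The margin of the ERK feedback genes over the stress phosphatase genes was larger in every ADP-CM library than in any control library only when the ETS factors were counted in. The mean log2 CPM of the 8 ERK feedback genes exceeded that of DUSP1 and DUSP10 by 1.56, 1.78 and 1.61 in control and by 1.85, 1.79 and 1.86 in ADP-CM. Control replicate 2 and ADP-CM replicate 2 nearly met, at 1.783 and 1.785. With ETV4 and ETV5 left out, the difference over the other 6 genes was 1.82, 2.01 and 1.87 in control and 1.99, 1.92 and 1.98 in ADP-CM, and the groups overlapped. For ETV4 and ETV5 alone it was 0.760, 1.09 and 0.806 in control and 1.42, 1.38 and 1.47 in ADP-CM. These per-library means are a description of the chosen genes, with no test. They rest on the same CPM values as the calls of ETV4 and ETV5 and add no support to those calls.

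Promoter sequence could be set beside 6 of the 10 genes from RefSeq's table of gene starts (build GRCh38.p14), and those of DUSP4, DUSP5, ETV4 and ETV5 were not analysed here. For SPRY2 and DUSP10, which have several entries, the first was used. The 250 bases upstream of the start are shown for DUSP6, the ERK feedback gene among the 6 that passed the test, and for DUSP1, a stress phosphatase gene that did not. Both matched GRCh37 once on their chromosome, at chr12:89746279-89746528 and chr5:172198199-172198448, and are written 5′ to 3′ on the minus strand. Capitals mark the matches to any of 6 motifs that were searched on both strands.
DUSP6: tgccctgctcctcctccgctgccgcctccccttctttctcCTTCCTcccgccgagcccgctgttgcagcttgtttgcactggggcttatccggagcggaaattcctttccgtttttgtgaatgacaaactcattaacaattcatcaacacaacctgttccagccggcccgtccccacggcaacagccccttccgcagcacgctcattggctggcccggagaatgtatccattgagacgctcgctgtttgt
DUSP1: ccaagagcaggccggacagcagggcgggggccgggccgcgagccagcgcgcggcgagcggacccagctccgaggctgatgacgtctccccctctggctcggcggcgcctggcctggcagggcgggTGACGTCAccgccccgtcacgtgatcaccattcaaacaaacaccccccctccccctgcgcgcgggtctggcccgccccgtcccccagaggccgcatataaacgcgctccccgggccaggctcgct
The motifs were the ETS sequence CCGGAAG, the PEA3-type ETS sequence AGGAAG, the AP-1 sequence TGANTCA, the cAMP response element TGACGTCA, the STAT sequence TTCNNNGAA and the CArG box of serum response factor. DUSP6 held 1 AGGAAG match, on the opposite strand and starting 210 bases before the gene start, and DUSP1 held 1 TGACGTCA match starting 125 bases before it. Among the 6 genes, AGGAAG occurred in 3 (DUSP6, SPRY2 and SPRED1) and TGACGTCA in DUSP1 alone, beside 28.7% and 1.65% of all 35116 promoters in the table. The other 4 motifs had no match in the 6 windows, and they occur in 8.52% (CCGGAAG), 6.57% (TGANTCA), 6.57% (TTCNNNGAA) and 1.16% (CArG box) of all promoters.

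Levels can be compared between genes only per length, so CPM was divided by the kilobases of annotated exon of each gene. On this scale DUSP5 was the highest in control, at 33.9 ± 1.01 CPM per kb (SD, n = 3), followed by DUSP4 at 25.6 ± 0.379 and DUSP6 at 13.6 ± 0.633. These 3 phosphatase genes were further apart than the spread between libraries. SPRED1 (8.45 ± 0.181), DUSP1 (8.44 ± 0.571) and ETV5 (7.50 ± 0.359) followed, with SPRED1 and DUSP1 not separable in control. SPRY2 (4.07 ± 0.182), ETV4 (3.36 ± 0.452), DUSP10 (3.10 ± 0.200) and SPRY4 (1.90 ± 0.125) were the lowest, and ETV4 and DUSP10 were not separable in control. In ADP-CM, ETV5 reached 10.1 ± 0.283 and passed SPRED1 (8.48 ± 0.527) and DUSP1 (7.84 ± 0.332), and ETV4 reached 4.99 ± 0.289 and passed SPRY2 (4.10 ± 0.244). The order depends on the length used. With the longest transcript in place of all exons, ETV4 was at 5.05 and ETV5 at 10.6 CPM per kb in control, against 4.83 for SPRY2 and 9.01 for SPRED1, and DUSP4 at 33.6 came close to DUSP5 at 34.7.

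**Figure D3:**
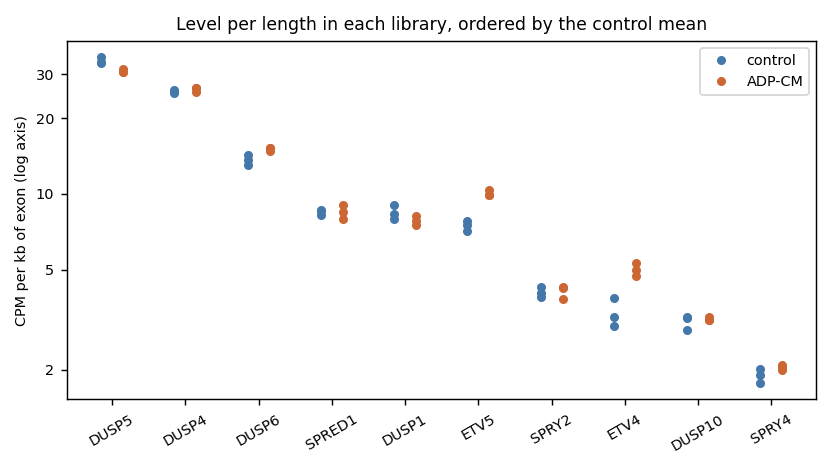
CPM per kb of annotated exon (y axis, log scale) of the 10 genes in the 3 control (blue) and 3 ADP-CM (orange) libraries, ordered by the control mean. The order runs from DUSP5 at 33.9 to SPRY4 at 1.90 in control, and ETV5 and ETV4 move up past their left-hand neighbours in ADP-CM.

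The closest relatives of the 10 genes were examined as a fixed list of 10 further symbols, of which 7 were tested. Of these, 2 rose (DUSP2 and SPRED2), 1 fell (DUSP9) and 4 did not pass the test. That is 28.6% higher and 14.3% lower of 7, beside 13.5% and 13.0% of all tested genes. SPRED2, which like SPRED1 restrains RAS through neurofibromin, rose from 68.3 ± 1.81 to 78.4 ± 0.825 CPM (SD, n = 3 each). It had 69.5, 69.2 and 66.3 CPM in control and 78.8, 77.4 and 78.9 CPM in ADP-CM, a fold change of 1.15 (95% interval 1.09 to 1.21; adjusted p-value 1.62e-05). The groups did not overlap for SPRED2, unlike for SPRED1, although the difference between the 2 genes was not tested.

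DUSP9, an ERK-preferring cytoplasmic phosphatase of the same subgroup as DUSP6, fell from 53.4 ± 4.06 to 45.0 ± 1.09 CPM (SD, n = 3 each). Its libraries had 58.1, 50.8 and 51.4 CPM in control and 45.1, 43.8 and 45.9 CPM in ADP-CM, a fold change of 0.842 (0.788 to 0.899; adjusted p-value 2.18e-05). DUSP7, the third gene of that subgroup and the most abundant relative, had a fold change of 1.02 (0.986 to 1.07; adjusted p-value 0.341). The subgroup thus held a gene that rose (DUSP6), a gene that fell (DUSP9) and a gene that did not pass the test. The call of DUSP9 held in every alternative fit, while that of DUSP6 was not stable.

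DUSP2, a nuclear phosphatase best known from immune cells, rose from 11.6 ± 1.46 to 14.1 ± 0.530 CPM (SD, n = 3 each), or 1.22 times the control level (adjusted p-value 0.00752). The call held without control replicate 3 (0.00116) and without ADP-CM replicate 2 (0.00977), but not without control replicate 1 (0.0519), control replicate 2 (0.0787), ADP-CM replicate 1 (0.0420) or ADP-CM replicate 3 (0.0137), nor with DESeq2 (0.0788). DUSP8 and DUSP16, phosphatases for JNK and p38, had fold changes of 0.881 and 0.963 with adjusted p-values of 0.102 and 0.416. SPRY1 had 23 to 35 reads in control and 39 to 48 in ADP-CM, a fold change of 1.44 (1.07 to 1.94) whose adjusted p-value was 0.0460. SPRY3 had 0 reads in every library, and SPRED3 had 1 to 6.

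**Figure D4:**
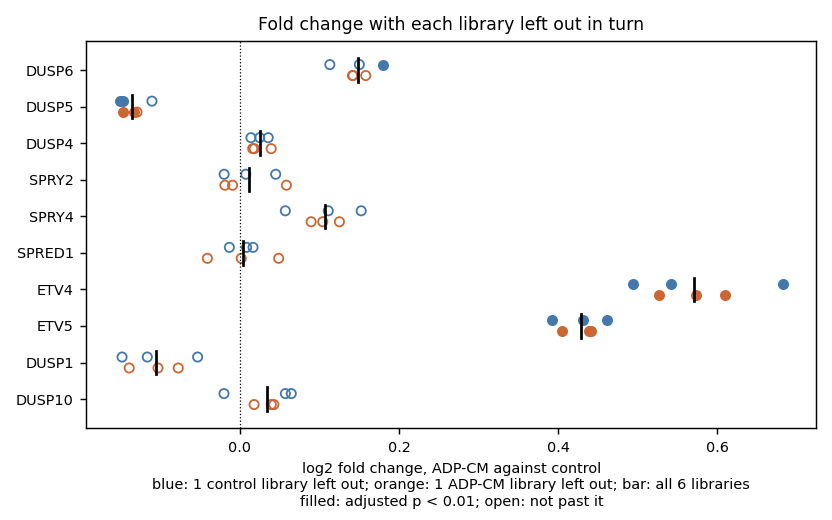
Log2 fold change of the 10 genes (x axis) with each control library (blue) or each ADP-CM library (orange) left out in turn, filled where the adjusted p was below 0.01, and with all 6 libraries (black bar). All 6 points of ETV4 and of ETV5 are filled, DUSP5 has 4 filled points and DUSP6 has 1.

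Genes of the ERK cascade itself, from RAS to the RSK kinases, were examined as a further list. Its share of calls was not tested against that of all genes. Of the 26 genes on this list, all tested, 4 rose and 1 fell, or 15.4% and 3.85%, beside 13.5% and 13.0% of all tested genes, and the median log2 fold change was -0.030. SHC1, an adaptor that links receptors to RAS activation, had 154, 166 and 153 CPM in control and 197, 197 and 197 CPM in ADP-CM, a rise of 0.32 ± 0.028 (SE) on the log2 scale (adjusted p-value 9.72e-15). It was the largest change on the list. NF1, which encodes the RAS inhibitor neurofibromin that SPRED proteins recruit, rose by 0.19 on the log2 scale (adjusted p-value 3.34e-08). LZTR1, an adaptor for the degradation of RAS proteins, rose by 0.28 (1.63e-09). RPS6KA3, which encodes an RSK kinase downstream of ERK, rose by 0.16 (4.21e-05).

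The 4 genes that rose on the cascade list kept their calls in every fit that left out a library. HRAS fell by 0.14 on the log2 scale (adjusted p-value 0.00287), from 73.4 ± 0.756 to 66.8 ± 1.34 CPM (SD, n = 3 each). Its call did not hold without control replicate 1 (0.0119) or 2 (0.0163) or ADP-CM replicate 3 (0.0159), nor with DESeq2 (0.0336). The MEK genes MAP2K1 and MAP2K2 had log2 fold changes of 0.049 and 0.023, neither past the test.

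The p38 and JNK cascade, on which DUSP1 and DUSP10 act, gave 2 genes higher and 2 lower of 19 tested, or 10.5% each. These shares were near the 13.5% and 13.0% of all tested genes, and the median log2 fold change of the list was -0.0018. MAP2K3, a kinase that activates p38, rose from 108 ± 2.79 to 118 ± 0.929 CPM (SD, n = 3 each), or 0.13 on the log2 scale, at an adjusted p-value of 0.000625 that became 0.0128 without control replicate 2. MAP3K5, the stress kinase ASK1, rose by 0.24 on the log2 scale (adjusted p-value 0.00180), a call lost without control replicate 1 (0.0278) and with DESeq2 (0.0347). RPS6KA4, a kinase activated by p38 and ERK, fell by 0.18 (3.79e-07). GADD45A, a stress-induced activator of this cascade, fell by 0.094 (0.00350), a call lost without control replicate 1 (0.0478) or 2 (0.0251) or ADP-CM replicate 1 (0.0596) and with DESeq2 (0.0202). The p38 genes MAPK11 to MAPK14 and the JNK genes MAPK8 to MAPK10 did not pass the test.

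Other transcripts known to follow ERK activity moved both ways, with more genes higher than lower. Of 18 such genes 17 were tested, and 7 rose and 3 fell, or 41.2% and 17.6%, beside 13.5% and 13.0% of all tested genes, with a median log2 fold change of 0.15. A fold change of 1.5 was passed by IER3 upward and EGR1 downward, beside 1.14% of all tested genes each way. IER3, an early response gene linked to cell survival, had 68.5, 70.0 and 71.9 CPM in control and 108, 106 and 115 CPM in ADP-CM, a log2 fold change of 0.64 (standard error 0.036; adjusted p-value 1.50e-23). MYC rose by 0.32 on the log2 scale (3.54e-18), ELK3, an ETS factor, by 0.37 (3.60e-10), and PHLDA1 by 0.20 (6.12e-11).

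EPHA2, an ephrin receptor gene, fell by 0.13 on the log2 scale (adjusted p-value 1.37e-06), and it, IER3, MYC, ELK3 and PHLDA1 kept their calls without any single library. EGR1, named after its values were seen, is among the most direct transcripts of ERK activation and had 30, 52 and 45 reads in control and 19, 20 and 27 in ADP-CM. Its log2 fold change was -1.07 (standard error 0.23; adjusted p-value 0.000176), the opposite direction to ETV4 and ETV5 in the same libraries. EGR1 was among the 3 genes of this list that fell, beside 7 that rose. The HBEGF and AREG ligand genes, also chosen after their values were seen, were measured at 3.67 and 0.940 CPM in control and did not pass the test.

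**Figure D5:**
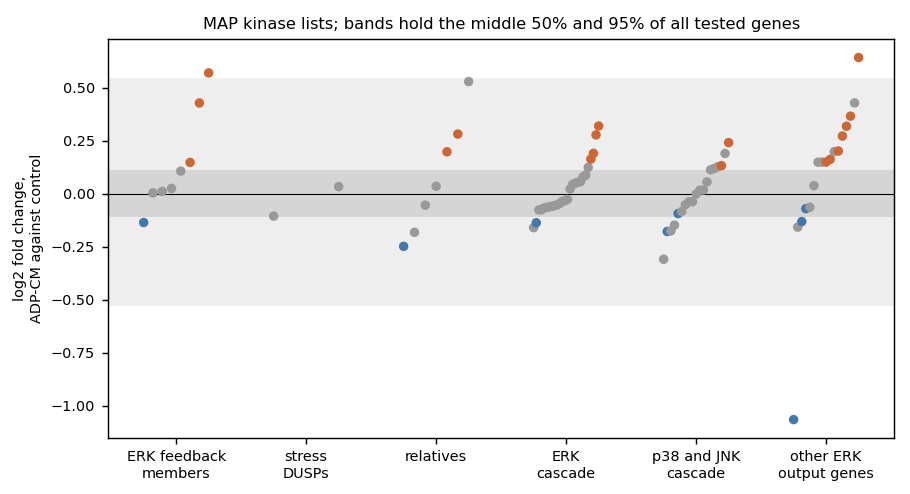
Log2 fold change of ADP-CM against control (y axis) of every tested gene on the 6 lists, coloured orange where higher, blue where lower and grey where not past an adjusted p-value of 0.01, over bands that hold the middle 50% (dark) and 95% (light) of all tested genes. ETV4 and IER3 lie above the light band and EGR1 lies far below it at -1.07, while the other tested genes lie within it.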

How the data were processed

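RNA of RL95-2 cells was read as 50 bp single reads from stranded poly(A) libraries, 3 control and 3 ADP-CM. The authors used TopHat2 to align reads to hg19 and HTSeq to assign them to RefSeq genes, and the deposited values are raw counts, 1 file per library. Program versions and the strand setting are not given in the sources used here. HTSeq's summary lines, with 10.3% of all reads on no gene in control and 11.5% in ADP-CM, entered neither library sizes nor tests. Reads without a unique alignment were not counted.

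Counts were scaled by TMM, filtered by filterByExpr (12663 of 23228 genes) and compared by the quasi-likelihood test of edgeR 4.0.16 in R 4.3.3, with Benjamini-Hochberg adjustment over all tested genes and a threshold of 0.01. The study's further limit of 1.5-fold is given where used. Standard errors are the size of the log2 fold change divided by the root of the F statistic. Intervals and limits for 0 reads cover these libraries and counting error only, since reads carry no molecular identifiers. The test was tried first on simulated data. Counts of any 2 replicates of a group varied beyond sampling noise (chi-square test), so each was kept as a sample. Positions, exon lengths and overlaps are from GENCODE release 44 on GRCh37, matched by symbol for all 10 genes and 10 relatives. Exact 50-base matches to transcripts of other genes covered 24.7% of the DUSP6 transcript positions, all in its antisense gene, and at most 1.97% for the other 9 genes. Alternatives were DESeq2 1.42.0, other scalings, other filters, a replicate block and each library left out. The genes named were the 10, their relatives and up to 5 changed genes per other list with the smallest p-values. EGR1, MAP2K1, MAP2K2, HBEGF, AREG and the p38 and JNK genes were named outside this rule, after their values were seen. The 10 genes and all lists were chosen with earlier results of these data known, so the lists are described by counts and medians, with no set test. Some genes on these lists are not reported here by name.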

Additional observations from a re-analysis of the deposited data

How the results depend on the processing

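Of 120 recomputed log2 fold changes of the 10 genes, 105 kept their direction and their side of the threshold, among them all of those of ETV4, ETV5, DUSP4, SPRY4 and DUSP1. Another 9 lost a call, all of DUSP5 and DUSP6. Direction reversed in 6, all near 0, for SPRY2 without control replicate 3 (-0.020) or ADP-CM replicate 1 (-0.0091) or 3 (-0.019), for SPRED1 without control replicate 1 (-0.013) or ADP-CM replicate 1 (-0.041), and for DUSP10 without control replicate 2 (-0.020). Over all single libraries left out, SPRY2 ran from -0.020 to 0.058, SPRED1 from -0.041 to 0.049 and DUSP10 from -0.020 to 0.065. With single libraries left out, the number of the 10 genes that rose ran from 2 to 3, that fell from 0 to 1 and past 1.5-fold from 0 to 1, and 2 to 5 p38 and JNK cascade genes changed. With DESeq2, 0 of the 10 fell and 2 p38 and JNK genes changed. The cause was not tested. Scaling by plain library sizes or by the size factors of DESeq2 moved the median of all genes by at most 0.0030 and changed no call of the 10. Over all genes, 3357 passed the adjusted p-value and 288 also passed 1.5-fold, against 1983 and 176 with DESeq2. Deviations of same-numbered libraries correlated at 0.0634, 0.0255 and 0.0918 across genes, and each library correlated best with its own number. The main fit did not take the numbers as pairs, a choice that these small correlations do not settle. With the replicate block, 3 of the 10 rose and 1 fell as without it, and 3502 genes were called in all. SPRY2, SPRY4, DUSP1 and DUSP10, at 137 to 302 reads per library, are limited by counting error of 5.91% to 8.02% per library. ETV4, at 170 to 342 reads per library, had a counting error of 6.21%, within the same range.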
